A study of Mus musculus with 4 samples.

Results

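The acid-secreting apparatus of the parietal cell was examined as 10 genes, measured in the gastric corpus of adult mice: the proton pump genes Atp4a and Atp4b, the potassium channel genes Kcne2, Kcnq1, Kcnj15 and Kcnj16, and the anion and proton transporter genes Slc26a7, Slc26a9, Slc9a4 and Slc4a2. They were chosen by name, with earlier results of these data known. Each was represented by the probe set with the highest mean among those annotated to a single gene. All 10 were found, out of 22180 genes with such a probe set, and each had exactly 1 probe set. All 10 passed the filter on low values, a mean over the arrays of at least 5.03 on the log2 scale, which 11090 genes passed.

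Acid is secreted by an ATPase that moves protons into the canaliculus of the parietal cell in exchange for potassium. Potassium channels in the same membrane return that potassium to the lumen, chloride leaves beside it, and exchangers in the basolateral membrane take up chloride and carry away the bicarbonate left in the cell. In the corpus, the oxyntic part of the stomach, parietal cells share the glands with chief, mucous neck and surface pit cells.

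The 4 groups were AMPK knockout mice given metformin (KO metformin), AMPK knockout mice given saline vehicle (KO vehicle), wild-type mice given metformin (WT metformin) and wild-type mice given vehicle (WT vehicle), with 1 array each. Knockout mice carried Atp4b-cre with Prkaa1fl/fl and Prkaa2fl/fl, so that Cre made in parietal cells removes either form of the catalytic subunit of AMPK, the AMP-activated kinase that senses cellular energy. Their background mixed B6 with FVB, while wild-type mice were C57BL/6, so genotype and background cannot be told apart. The mice were 8 to 10 weeks old, and metformin was injected into the peritoneum daily at 300 mg/kg for 14 days. The promoter that drives Cre is that of Atp4b, which is itself among the 10 genes, and whether the transgene adds to the Atp4b signal was not tested. The labels do not say how many animals stand behind an array. With 1 array in a group, differences between arrays carry no replicate check and no p-value.

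Prkaa1 had 8.66 on the KO metformin array, 8.18 on the KO vehicle array, 8.90 on the WT metformin array and 9.46 on the WT vehicle array, and Prkaa2 had 7.52, 7.19, 8.02 and 8.90 in the same order. Both deleted genes were lower in KO under either treatment. In log2 units Prkaa1 and Prkaa2 differed by -1.28 and -1.71 under vehicle, where the 5th percentile of all genes tested was -1.16. Under metformin they differed by -0.24 and -0.50, where that percentile was -0.48. With metformin in WT they were also lower, at -0.55 and -0.88. What part of the KO differences comes from the deletion was not tested. Pairs of arrays correlated over genes with r between 0.905 and 0.971. KO vehicle with WT vehicle was the pair at 0.905, with an SD of differences of 0.60, against 0.33 to 0.43 for the 5 other pairs. Differences are log2 values, and 1 on this scale is 2-fold. As deposited, 20.1% of the genes past 2-fold between KO metformin and KO vehicle were lower, 54.5% between WT metformin and WT vehicle, and 77.9% between KO vehicle and WT vehicle. After cyclic loess, a scaling that removes intensity-dependent differences between arrays, these shares were 32.5%, 40.4% and 60.4%. The median difference of all genes between KO vehicle and WT vehicle was -0.22 as deposited and -0.07 after cyclic loess. That median is therefore given beside the differences where it matters, and fold values are not corrected for it. The chief cell gene Pgc lay between 13.99 and 14.02 and the pit cell gene Gkn2 between 13.84 and 13.91 on all 4 arrays, in the range of the brightest genes. Both were picked after their values were seen. Whether they tell the corpus from other parts of the stomach was not tested.

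RefSeq promoter sequences on GRCm38.p6 were found for 6 of the 10 genes, Atp4a, Kcne2, Kcnj15, Kcnj16, Slc26a9 and Slc4a2. The 250 bases before the start of transcription are shown for the closest pair of profiles (Atp4a and Kcne2), for a pair with low values in KO vehicle (Slc26a9 and Kcnj15) and for Kcnj16, which followed neither. All are on the plus strand, and capitals mark motifs found on either strand. The core motif of estrogen-related receptors was searched as AAGGTCA. The GATA site was searched as AGATAA. The TATA box was searched as TATAAA.
Atp4a (chr7:30711959-30712208): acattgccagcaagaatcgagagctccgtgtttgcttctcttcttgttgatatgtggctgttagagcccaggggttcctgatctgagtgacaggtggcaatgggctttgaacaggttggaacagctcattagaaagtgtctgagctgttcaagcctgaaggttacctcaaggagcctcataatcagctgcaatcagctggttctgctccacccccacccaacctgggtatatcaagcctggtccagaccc
Kcne2 (chr16:92292139-92292388): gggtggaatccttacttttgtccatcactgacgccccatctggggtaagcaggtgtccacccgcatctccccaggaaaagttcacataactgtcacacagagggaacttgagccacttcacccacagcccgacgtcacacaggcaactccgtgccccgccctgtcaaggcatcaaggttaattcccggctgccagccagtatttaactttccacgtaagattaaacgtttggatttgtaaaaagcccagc
Slc26a9 (chr1:131743772-131744021): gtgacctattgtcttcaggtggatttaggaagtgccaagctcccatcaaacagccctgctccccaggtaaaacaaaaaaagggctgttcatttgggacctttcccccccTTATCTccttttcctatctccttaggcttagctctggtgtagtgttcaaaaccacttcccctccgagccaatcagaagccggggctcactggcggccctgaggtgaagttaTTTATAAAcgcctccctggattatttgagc
Kcnj15 (chr16:95257308-95257557): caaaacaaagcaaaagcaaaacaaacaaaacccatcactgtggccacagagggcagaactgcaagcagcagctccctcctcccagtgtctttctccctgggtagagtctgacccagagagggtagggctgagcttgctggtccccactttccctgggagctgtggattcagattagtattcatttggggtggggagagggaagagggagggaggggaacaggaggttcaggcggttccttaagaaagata
Kcnj16, the farthest upstream of its 4 listed starts (chr11:110967783-110968032): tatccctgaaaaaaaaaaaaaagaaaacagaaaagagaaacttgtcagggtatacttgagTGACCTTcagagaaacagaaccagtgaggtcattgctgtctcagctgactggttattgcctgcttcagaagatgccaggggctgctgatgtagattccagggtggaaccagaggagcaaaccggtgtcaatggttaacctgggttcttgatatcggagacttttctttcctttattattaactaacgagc
Slc26a9 holds TATAAA from base -28, overlapped by a match on the other strand, and AGATAA on the minus strand from base -141, counting back from the start. Kcnj16 holds AAGGTCA on the minus strand from base -190, and the window of another of its starts, not shown, holds AGATAA from base -187 and TATAAA from base -133. The same windows of Atp4a, Kcne2 and Kcnj15 hold none of the 3 motifs. Among 32851 promoter windows of this length, 4.08% hold AAGGTCA, 9.99% AGATAA and 12.4% TATAAA. Of the 11 windows listed for the 6 genes, 1 holds AAGGTCA, 2 hold AGATAA and 2 hold TATAAA.

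The pump itself is built from a catalytic subunit, encoded by Atp4a (chromosome 7, 30712209 to 30725534), and a glycosylated subunit needed for assembly and delivery to the membrane, encoded by Atp4b (chromosome 8, 13386209 to 13396778). Atp4a had log2 values of 12.94 on the KO metformin array, 12.80 on the KO vehicle array, 12.97 on the WT metformin array and 13.22 on the WT vehicle array. Atp4b had 13.32, 13.01, 13.25 and 13.44 on the same arrays. Both were lowest on the KO vehicle array and highest on the WT vehicle array. Between these arrays the difference was -0.42 for Atp4a and -0.43 for Atp4b, or 1.34-fold and 1.35-fold lower in KO, and the median gene was lower by 0.22. Of all genes, 34.6% lay lower than Atp4a in this comparison and 34.2% lower than Atp4b. The log2 ratio of Atp4a to Atp4b moved over a range of 0.17 across the 4 arrays, a smaller range than for any of the 4 other pairs compared here. Both genes lay near the highest value on the arrays (14.0), and whether differences are compressed at such levels was not tested. In bulk tissue, fewer parietal cells and less RNA per parietal cell cannot be told apart, and this holds for every gene below.

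**Figure D1:**
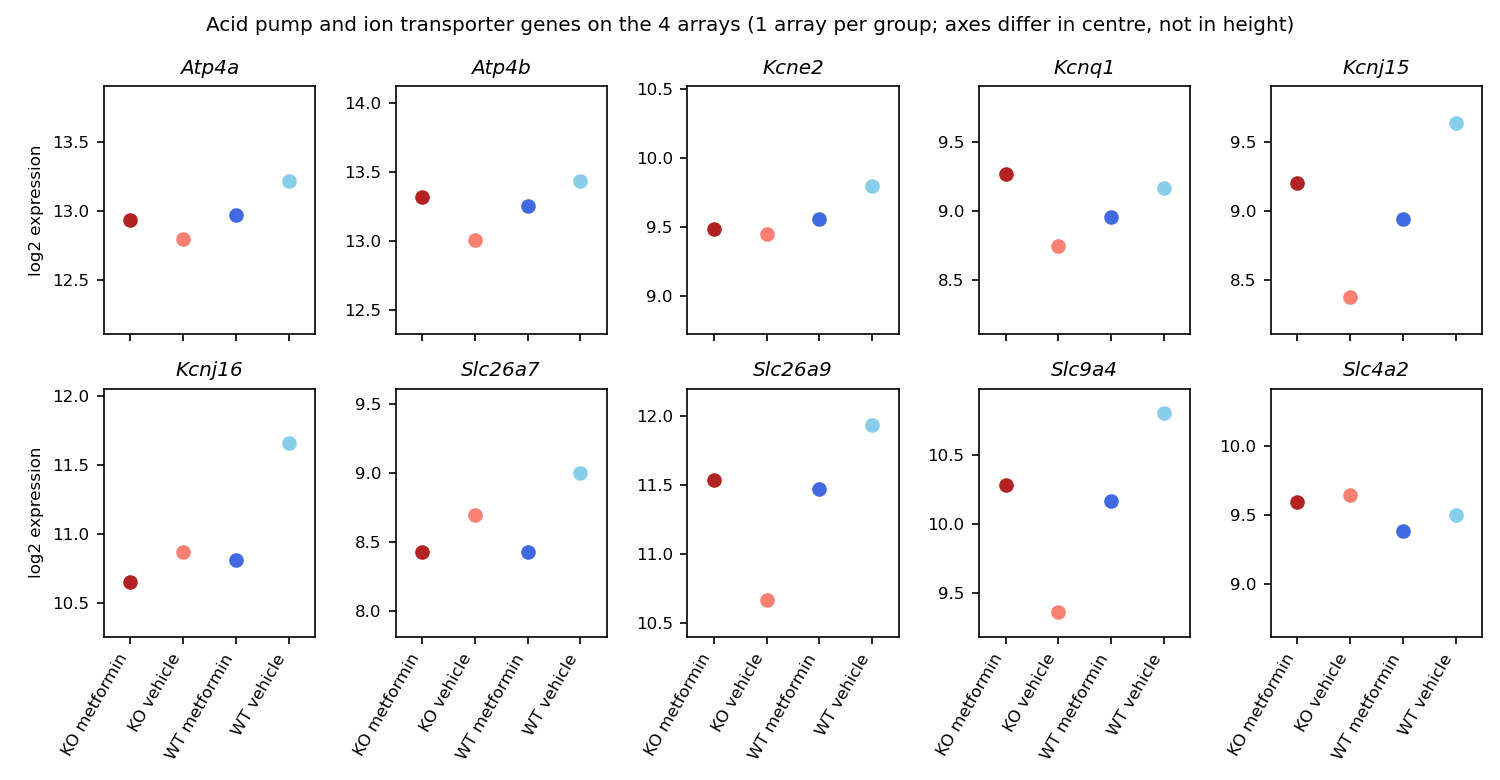
Log2 expression (vertical axes, all of the same height) of each of the 10 genes on the KO metformin, KO vehicle, WT metformin and WT vehicle arrays, 1 point per array. Slc9a4, Slc26a9 and Kcnj15 lie furthest apart between the vehicle arrays, at 9.36, 10.67 and 8.38 on the KO vehicle array, against 10.80, 11.93 and 9.64 on the WT vehicle array.

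Potassium recycling at the canaliculus depends on the channel formed by Kcnq1, which encodes the pore, and Kcne2, which encodes its accessory subunit in parietal cells. Kcne2 (chromosome 16, 92292389 to 92298133) had 9.49 in KO metformin, 9.44 in KO vehicle, 9.55 in WT metformin and 9.80 in WT vehicle. Its values on the first 3 of these arrays lay close together, below WT vehicle. Kcnq1 (chromosome 7, 143106877 to 143427050) had 9.27, 8.74, 8.95 and 9.16 in the same order and was the only one of the 10 genes with its highest value on the KO metformin array. Kcnq1 was lower by 0.42 in KO vehicle against WT vehicle and Kcne2 by 0.35, while KO metformin against KO vehicle gave 0.53 for Kcnq1 and 0.04 for Kcne2. The ratio of pore to accessory subunit therefore moved over a range of 0.48. The value of Kcne2 in KO with metformin turned to -0.11 after cyclic loess and -0.01 after quantile normalization of the arrays, and was -0.09 with the trend on gene span removed.

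The inward rectifiers Kcnj15 and Kcnj16, potassium channel subunits also found in parietal cells, parted from each other. Kcnj15 (chromosome 16, 95257558 to 95300260) had 9.20 in KO metformin, 8.38 in KO vehicle, 8.95 in WT metformin and 9.64 in WT vehicle. It was 2.40-fold lower in KO vehicle than in WT vehicle (-1.26), and in KO it was 1.77-fold higher with metformin than with vehicle (0.83). Kcnj16 (chromosome 11, 110968033 to 111027968), whose product works in channels formed with other inward rectifiers, had 10.66, 10.87, 10.82 and 11.66 on the same arrays. The KO metformin, KO vehicle and WT metformin arrays lay within 0.22 of each other, and WT vehicle stood above them. Kcnj16 was 1.80-fold lower with metformin in WT (-0.84), the largest such difference among the 10 genes, and in KO it was also lower with metformin than with vehicle (-0.22). The log2 ratio of Kcnj15 to Kcnj16 moved over a range of 1.04.

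Chloride pathways gave the same contrast. Slc26a9 (chromosome 1, 131744022 to 131771504), which encodes a chloride transporter of parietal and surface cells, had 11.54 in KO metformin, 10.67 in KO vehicle, 11.47 in WT metformin and 11.93 in WT vehicle. KO vehicle was the low array, 2.41-fold under WT vehicle (-1.27), and both metformin arrays lay between. Slc26a7 (chromosome 4, 14502430 to 14621946), a basolateral chloride-bicarbonate exchanger of parietal cells, had 8.43, 8.69, 8.43 and 9.00 in the same order. Its metformin arrays were the low ones in both genotypes, at -0.26 against vehicle in KO and -0.57 against vehicle in WT. The KO metformin and WT metformin values of Slc26a7 differed by 0.003. The log2 ratio of Slc26a9 to Slc26a7 moved over a range of 1.13.

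Of the basolateral exchangers, Slc9a4 and Slc4a2 lay at opposite ends of the 10 genes. Slc9a4 (chromosome 1, 40579986 to 40630731), the sodium-proton exchanger that parietal cells use at their basolateral side, had 10.29 in KO metformin, 9.36 in KO vehicle, 10.16 in WT metformin and 10.80 in WT vehicle. Its spread over the arrays, 1.44, was the widest of the 10, and KO vehicle was 2.72-fold below WT vehicle. In KO it was 1.90-fold higher with metformin (0.93). Slc4a2 (chromosome 5, 24423761 to 24440947), the anion exchanger that brings in chloride for secretion and is made in many epithelia, had 9.59, 9.64, 9.38 and 9.50 on the same arrays. It had the narrowest spread, 0.26, and was the only gene of the 10 that was higher in KO vehicle than in WT vehicle (0.15).

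Under vehicle, 9 of the 10 genes were lower in KO vehicle than in WT vehicle, and 66.9% of all genes tested were. At least 2-fold lower were 3 of the 10 (Slc9a4, Slc26a9 and Kcnj15), against a background of 8.12% of all genes. With Kcnj16 (-0.79), 4 of the 10 were lower by at least 1.5-fold, beside 24.4% of genes. The median difference of the 10 was -0.43, beside -0.22 over all genes tested. The background depended on level. It was 0.03 over all 22180 genes with no filter. It was -0.30 over the 5545 genes past a stricter filter, at the 75th percentile of gene means, which all 10 pass. Of those 5545 brighter genes, 575 were at least 2-fold lower. Slc9a4 stood lower than all but 2.26% of genes, Slc26a9 than all but 3.54% and Kcnj15 than all but 3.62%. Lowest on the KO vehicle array were 7 of the 10, as were 44.3% of all genes, and highest on the WT vehicle array were 8 of the 10, as were 46.2% of all genes.

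**Figure D2:**
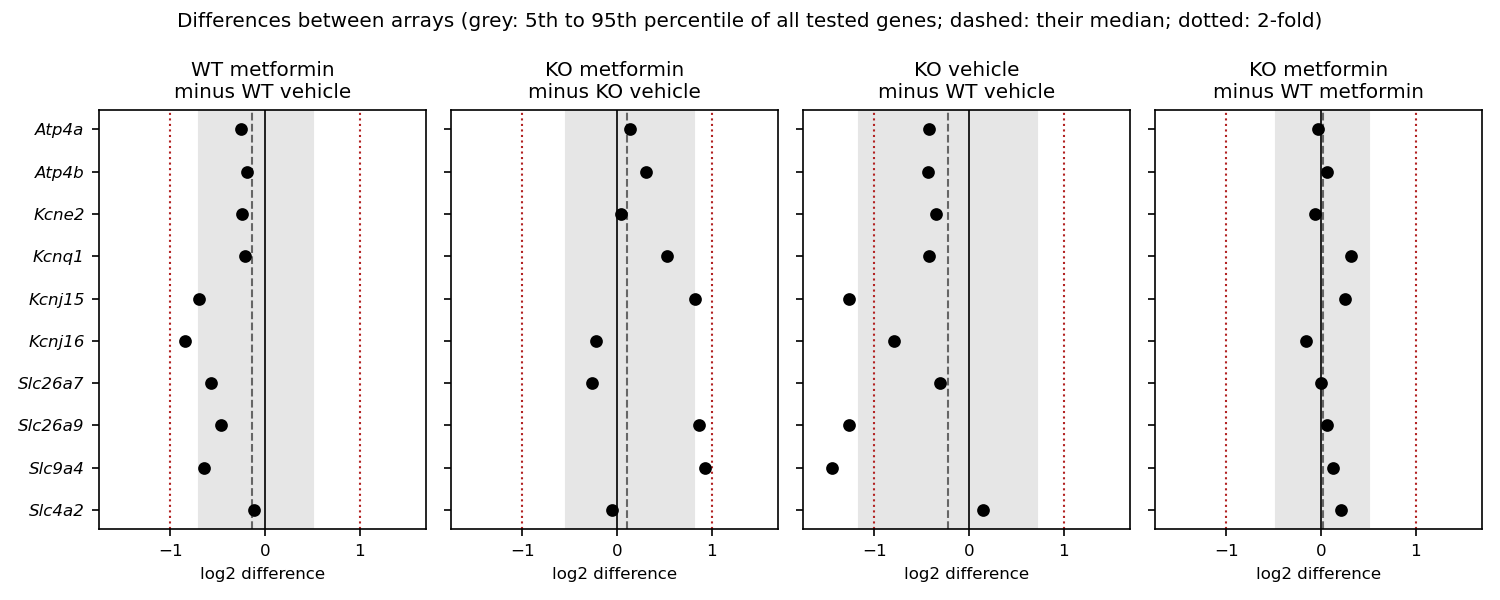
Log2 differences of the 10 genes (horizontal axis) in 4 comparisons of single arrays, with the 5th to 95th percentile of all 11090 tested genes in grey, their median dashed and 2-fold dotted. In KO vehicle minus WT vehicle, Slc9a4, Slc26a9 and Kcnj15 lie beyond the 2-fold line, while in KO metformin minus WT metformin all 10 lie between -0.16 and 0.32.

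Genomic span moved with this comparison across the whole array. Among protein-coding genes, the median difference of KO vehicle from WT vehicle was 0.01 for spans under 10 kb (2491 genes), -0.23 from 10 to 30 kb (3473 genes), -0.34 from 30 to 100 kb (3158 genes) and -0.35 at 100 kb or more (1426 genes). Kcne2 spans 5.75 kb, Atp4b 10.6 kb, Atp4a 13.3 kb and Slc4a2 17.2 kb, all shorter than Slc26a9 (27.5 kb), Kcnj15 (42.7 kb) and Slc9a4 (50.7 kb). Kcnj16 (59.9 kb) is longer than these 3, with a difference of -0.79, or -0.45 against its span class. Against the median of their own span class, differences were -1.10 for Slc9a4, -1.04 for Slc26a9 and -0.92 for Kcnj15. The longest genes, Kcnq1 (320.2 kb) and Slc26a7 (119.5 kb), differed from their class by -0.08 and 0.04. With the trend on span removed after cyclic loess among protein-coding genes, Slc9a4 was at -1.05, Slc26a9 at -0.99 and Kcnj15 at -0.84, so that 1 of the 10 stayed past 2-fold, beside 4.08% of genes. In that setting Kcnq1 (0.06) and Slc26a7 (0.16) turned positive.

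**Figure D3:**
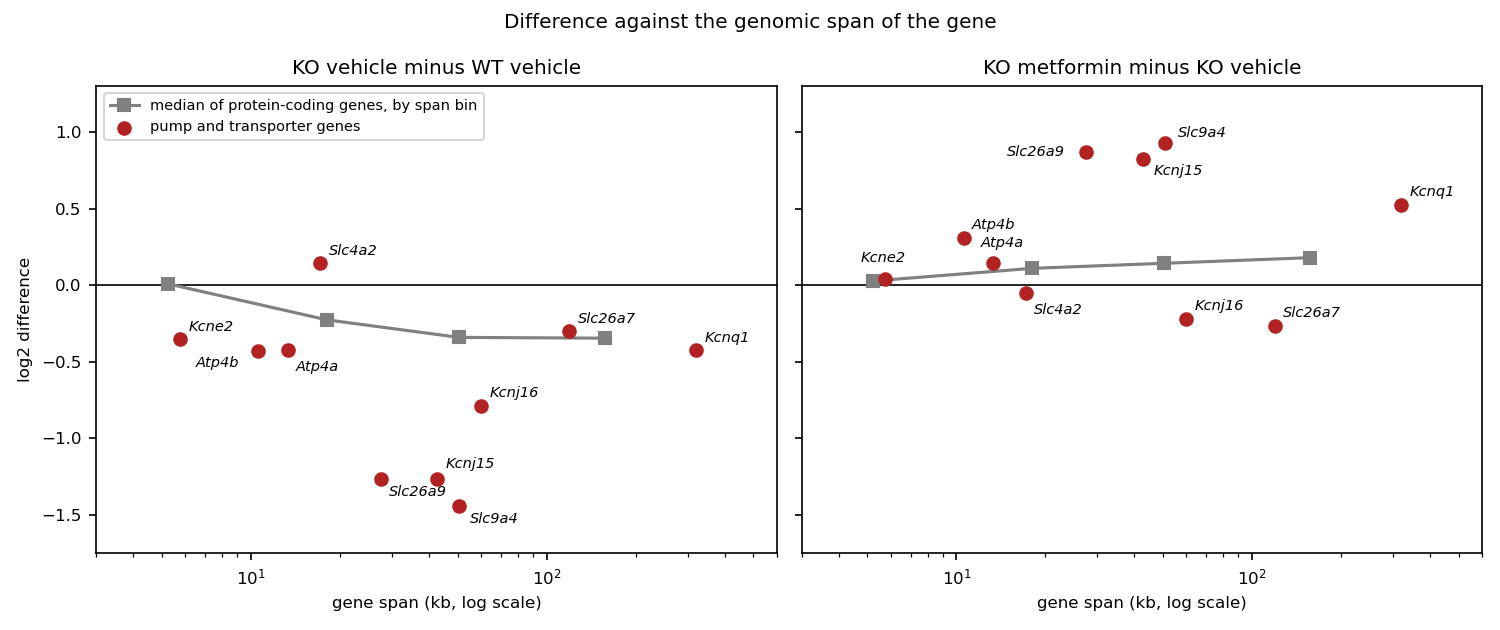
Log2 difference (vertical axis) against the genomic span of the gene in kb (log scale) for KO vehicle minus WT vehicle, on the left, and KO metformin minus KO vehicle, on the right. Red points are the 10 genes and grey squares the medians of protein-coding genes in 4 classes of span, which run between 0.01 and -0.35 on the left and between 0.03 and 0.18 on the right.

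In WT, where the series looked for targets of metformin in mature parietal cells, all 10 genes were lower with metformin than with vehicle, as were 65.3% of all genes. None reached 2-fold (1.7% of all genes did, in either direction), and 3 of the 10 were lower by at least 1.5-fold, Kcnj16 (-0.84), Kcnj15 (-0.69) and Slc9a4 (-0.64), against 9.06% of genes. The median of the 10 was -0.35, beside -0.14 over all genes tested and -0.18 over genes past the filter at the 75th percentile. Atp4a (-0.25), Kcne2 (-0.24), Kcnq1 (-0.21), Atp4b (-0.19) and Slc4a2 (-0.12) lay nearer to the median of all genes. Kcnq1 (0.05) and Slc4a2 (0.02) turned positive with the span trend removed, and the other 8 stayed negative under all 5 scalings.

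In KO, where metformin was tested in stomachs described by the submitters as poorer in mature parietal cells, 7 of the 10 genes were higher with metformin than with vehicle, beside 61.7% of all genes. None reached 2-fold (3.06% of all genes did, in either direction), and Slc9a4 (0.93), Slc26a9 (0.87) and Kcnj15 (0.83) passed 1.5-fold, against 12.4% of genes that were higher by as much. The median of the 10 was 0.23, that of all genes tested 0.11 and that of genes past the filter at the 75th percentile 0.16. Kcnq1 was at 0.53, Atp4b at 0.31 and Atp4a at 0.14, while Slc4a2 (-0.05), Kcnj16 (-0.22) and Slc26a7 (-0.26) were lower. The difference of Atp4a was gone after quantile normalization (0.00). The vehicle arrays are shared between this comparison, the WT response and the vehicle comparison of the genotypes. The KO vehicle array thus enters both the low values of Slc9a4, Slc26a9 and Kcnj15 against WT vehicle and their high values with metformin in KO. Relative to each gene's own mean, KO vehicle and WT vehicle stood at -0.79 and 0.65 for Slc9a4. They stood at -0.74 and 0.53 for Slc26a9 and at -0.66 and 0.60 for Kcnj15, so WT vehicle was also high. The WT vehicle array likewise enters the WT response.

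Under metformin the genotypes lay close, over all genes as well as for the 10. KO metformin with WT metformin was the most similar pair of arrays (r 0.971, SD of differences 0.33). The median difference was 0.065 for the 10 and 0.02 over all genes. Of the 10 genes, 0 reached 1.5-fold between KO metformin and WT metformin in either direction, beside 3.11% of genes higher and 2.67% lower, and 0.92% of genes reached 2-fold. Higher in KO metformin were 7 of the 10, beside 53.0% of genes. The widest differences were Kcnq1 (0.32), Kcnj15 (0.26), Slc4a2 (0.21) and Kcnj16 (-0.16). Atp4a (-0.03), Atp4b (0.07), Kcne2 (-0.07) and Slc26a9 (0.06) lay nearer to 0, and Slc9a4, with the widest difference under vehicle, was at 0.12. Atp4a turned to 0.02 after cyclic loess, and Slc26a7 to -0.01.

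The KO response minus the WT response to metformin was above 0 for all 10 genes, beside 67.0% of all genes, and at or above 1 for Slc9a4 (1.56), Kcnj15 (1.52) and Slc26a9 (1.33), beside 11.2% of genes. At least 1.5-fold were 5 of the 10, with Kcnq1 (0.74) and Kcnj16 (0.63) added, beside 28.5% of genes. It was smallest for Slc4a2 (0.07), which turned to -0.18 after cyclic loess, and Slc26a7 (0.30) turned to -0.21 with the span trend removed. Lower with metformin in WT and higher in KO were 7 of the 10, beside 46.6% of all genes. These differences have 1 array behind each of their 4 terms and were not tested. Each equals the KO metformin minus WT metformin difference less the KO vehicle minus WT vehicle difference. Those 2 were 0.12 and -1.44 for Slc9a4, 0.06 and -1.27 for Slc26a9, and 0.26 and -1.26 for Kcnj15. For these 3 genes the value is thus mostly the vehicle comparison seen again.

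Averaged over treatment or over genotype, 2 arrays could be set against 2 with limma, leaving 1 residual degree of freedom that also holds any real difference between the metformin responses. None of the 10 passed an adjusted p of 0.05 for genotype or for metformin, and none had an unadjusted p under 0.05. Over all genes limma called 5 for genotype (0.0451%) and 0 for metformin (0.0%), with 374 (3.37%) and 32 (0.289%) at an unadjusted p under 0.05. The lowest unadjusted p in limma was 0.131 for the genotype effect of Slc9a4 (-0.66, SE 0.40) and 0.126 for the metformin effect of Kcnj16 (-0.53, SE 0.31). Adjusted by limma over all genes, the p was 0.9995 for the first and 1.0 for the second.

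**Figure D4:**
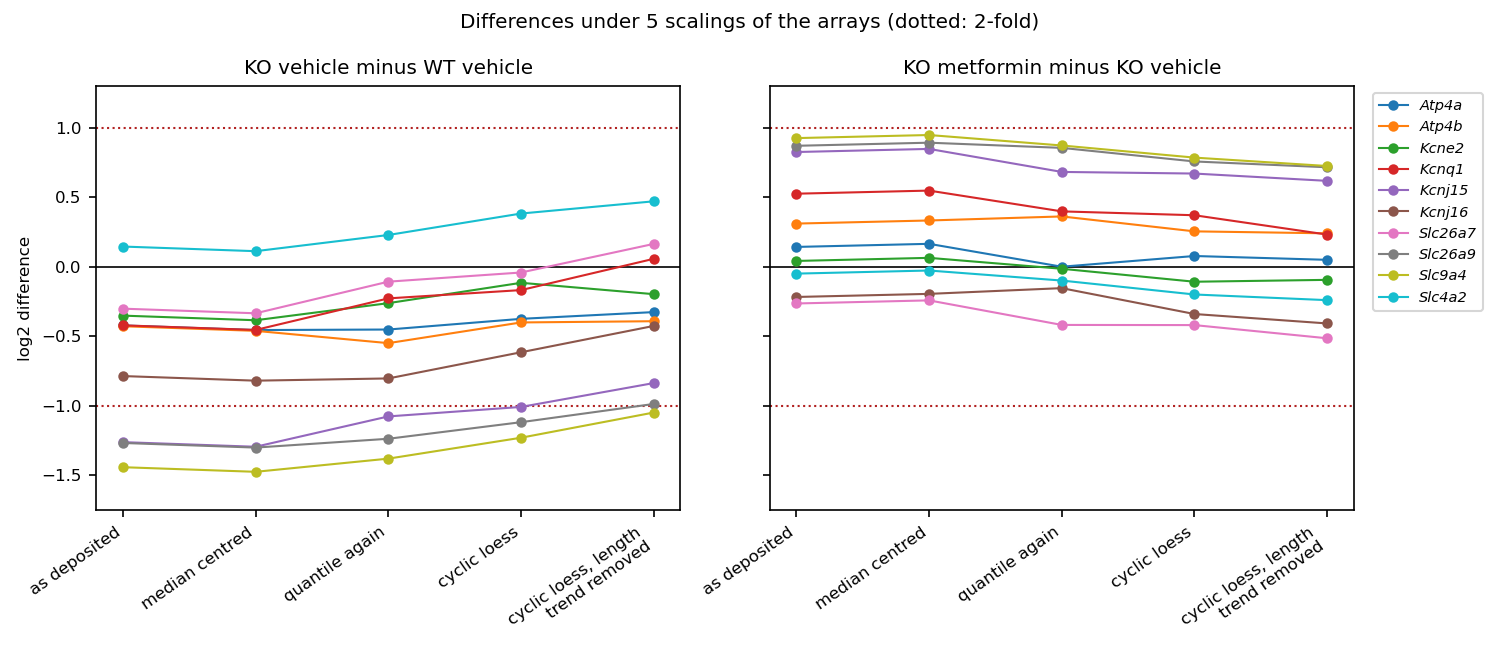
Log2 difference (vertical axis) of each of the 10 genes under 5 scalings of the arrays, for KO vehicle minus WT vehicle, on the left, and KO metformin minus KO vehicle, on the right, with 2-fold dotted. Slc9a4, Slc26a9 and Kcnj15 are the 3 lowest on the left and the 3 highest on the right under all 5 scalings, and with the span trend removed Slc26a9 (-0.99) and Kcnj15 (-0.84) fall short of 2-fold on the left.

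Profiles of the 10 genes over the arrays, each taken relative to its own mean, were compared by root mean square distance. The nearest pairs were Atp4a with Kcne2 (0.04), Atp4a with Atp4b (0.07), Slc26a9 with Slc9a4 (0.07), Kcnj15 with Slc9a4 (0.09) and Kcnj15 with Slc26a9 (0.10). The farthest pair was Slc9a4 with Slc4a2 (0.57). Many genes outside the set had like profiles. Of 10538 other protein-coding genes, 27 lay nearer to Slc9a4 than Slc26a9 did and 49 nearer than Kcnj15 did, and the 5 nearest were Ttc17, Pias1, Osbpl2, Mdm2 and Rtca (0.02 to 0.04). Nearest to the median profile of the 10 were Helq, Bckdk, Tlr4, Xpo7 and Cnot10, all at 0.03. These are descriptions over 4 arrays.

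Other genes of acid secretion were read from a list of 36, of which 30 had a probe set of their own and 26 passed the filter. Between KO vehicle and WT vehicle, 23 of the 26 were lower, with 1 of them past 2-fold, and their median was -0.28, beside 66.9% of all genes lower, 8.12% past 2-fold and a median of -0.22. That one was Cckbr, which encodes a gastrin receptor, at 5.43 in KO vehicle against 7.20 in WT vehicle (-1.76). Which cells gave its signal was not tested. Next lowest were the potassium channel Kcnma1 (-0.98) and the basolateral chloride importer Slc12a2 (-0.81), and highest were Kcnj10 (0.64), the syntaxin Stx3 (0.35) and the vesicle regulator Rab25 (0.18). With metformin in WT, 17 of the 26 were lower, 0 by 2-fold, near the 65.3% of all genes that were lower. The lowest were Cckbr (-0.78), the muscarinic receptor Chrm3 (-0.64) and the histamine receptor Hrh2 (-0.60). All 4 listed receptors past the filter were lower, not only those that start secretion. With metformin in KO, 20 of the 26 were higher, 2 of them past 2-fold, beside 61.7% and 2.44% of all genes. These were the chloride channel Clcn2, at 7.70 in KO metformin against 6.23 in KO vehicle (1.47), and the sodium-bicarbonate cotransporter Slc4a4, at 7.72 in KO metformin against 6.68 in KO vehicle (1.05).

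Of 56 listed relatives of the 10 genes within their own families, 47 had a probe set of their own and 19 passed the filter. Some of them, Slc9a2 and Slc4a4 among them, stand in the list of acid secretion genes too. Between KO vehicle and WT vehicle the 19 had a median of -0.26, beside -0.22 over all genes. At least 2-fold lower were 2 of them (8.12% of all genes were) and at least 2-fold higher 0 (256 of 11090 genes were). Kcne1, which encodes another accessory subunit of the Kcnq1 channel, had 6.37 in KO metformin, 6.10 in KO vehicle, 6.51 in WT metformin and 7.54 in WT vehicle. Its WT vehicle value stood alone above the others, with a difference of -1.45 for KO vehicle against WT vehicle and -1.03 for metformin in WT. Slc9a8, a sodium-proton exchanger of intracellular membranes, had 7.51, 6.71, 7.09 and 7.90 in the same order. It was lower by 1.20 in KO vehicle against WT vehicle, and higher by 0.80 with metformin in KO. Slc9a2, an exchanger of gastric epithelium, differed between the vehicle arrays by -0.09. Atp12a, which encodes the nongastric counterpart of Atp4a, was at 3.75 or less on all 4 arrays.

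**Figure D5:**
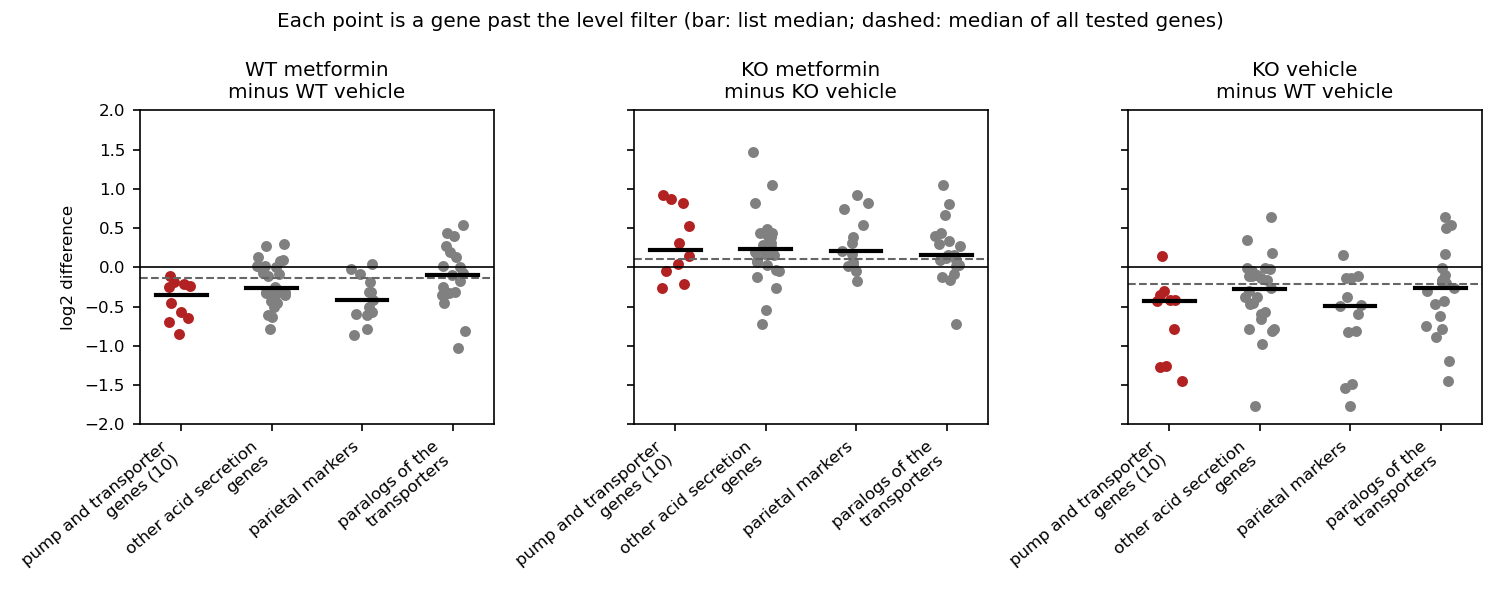
Log2 differences (vertical axis) of the 10 pump and transporter genes (red) and of other acid secretion genes, parietal markers and paralogs (grey), 1 point for each gene past the filter, in 3 comparisons, with bars at list medians and the median of all tested genes dashed. In KO vehicle minus WT vehicle the medians are -0.43, -0.28, -0.49 and -0.26 in that order.

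Genes listed as parietal markers, none of them among the 10, moved alongside. Whether each of them, Cldn18 and Cckbr included, is confined to parietal cells was not tested. Of 15, 13 passed the filter, and Hrh2, Cckbr, Clic6 and Car2 stand in both this list and that of acid secretion. Their median was -0.49 between KO vehicle and WT vehicle (12 of 13 lower, 3 by at least 2-fold), -0.41 with metformin in WT (12 of 13 lower, 0 by 2-fold) and 0.21 with metformin in KO (11 of 13 higher, 0 by 2-fold). Over all genes 66.9% were lower and 8.12% past 2-fold lower in the first of these comparisons, 65.3% lower in the second and 61.7% higher in the third. The 3 past 2-fold were Cckbr, the tight junction gene Cldn18 (-1.49) and the water channel Aqp4 (-1.54), all lower than Slc9a4 (-1.44), the lowest of the 10. Highest of the 13 were Esrrb (0.16), the only 1 above 0, and the histamine receptor Hrh2 (-0.11). Carbonic anhydrase Car2 and creatine kinase Ckb, both at -0.13, also lay above the pump genes.

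Markers of other tissue layers differed between the same arrays. Of 8 smooth muscle genes, 4 were at least 2-fold lower in KO vehicle than in WT vehicle (median -1.02), beside 8.12% of all genes, and the log2 of their summed level was 13.31 in KO metformin, 12.77 in KO vehicle, 13.75 in WT metformin and 13.70 in WT vehicle. Of 10 squamous genes with a probe set, 6 were at least 2-fold higher in KO metformin than in KO vehicle, beside 1.53% of all genes without the filter, and the log2 of their summed level was 11.62 in KO metformin, 9.83 in KO vehicle, 10.22 in WT metformin and 9.96 in WT vehicle. The 4 pit cell genes had a median of -0.11 and the 5 measured chief cell genes a median of 0.06 between KO vehicle and WT vehicle. Of 6 endocrine genes, 3 were lower and 3 higher in that comparison (median -0.19), beside 66.9% of all genes lower. Lowest of the 6 were Chga (-1.01) and Hdc (-0.70), and highest was Chgb (0.55). The mucin gene Muc5ac of pit cells was at -0.73 in that comparison and at 0.83 with metformin in KO. The 5 neck cell genes went both ways under vehicle, with the mucin gene Muc6 (-1.05) and A4gnt (-1.48), which encodes a mucin glycosyltransferase, at least 2-fold lower in KO and Tff2 at 0.89 (median 0.01). With metformin in KO, 4 of the 5 were higher and Tff2 was lower (-0.19). Muc6 (1.22) and A4gnt (1.19) were at least 2-fold higher there, beside 2.44% of all genes. The neck median was 0.96, beside 0.11 over all genes. Muc5ac, Muc6 and A4gnt were thus low on the KO vehicle array and higher on the KO metformin array, as Slc9a4, Slc26a9 and Kcnj15 were. The part of these tissue differences in the values of the 10 genes was not tested.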

How the data were processed

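Biotinylated cDNA from corpus RNA was hybridised to Affymetrix arrays, per the labels' protocols. The values deposited by the authors are on the log2 scale, judging by their range (0.77 to 14.0). Partek and RMA are the tools that the submitters' processing notes list, without versions or settings. Precision is limited by there being 4 arrays.

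Of 41345 probe sets, the platform annotation pairs 23521 with 1 gene, 1814 with several and 16010 are unnamed here. Symbols were updated by gene identifier in the RefSeq table of GRCm38.p6 (23328 matched), which also gave coordinates and spans. The filter kept genes whose mean was no lower than the median gene mean (5.03), 11090 in all, of which 10548 are protein coding. Differences are between single arrays, counted at 2-fold or, where said, at 1.5-fold, with no p-value. limma 3.58.1 in R 4.3.3 (lmFit, eBayes, genotype and treatment as additive terms, Benjamini-Hochberg adjustment) was run on simulated data first. The simulation had independent noise and no difference between the metformin responses, so it does not cover data that hold one. Other steps used Python 3.11.15, pandas 2.3.3 and statsmodels 0.14.6 (lowess span 0.3).

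The 10 genes and the lists were chosen with earlier results of these data known. Named from each list were at most the 3 highest and 3 lowest genes past the filter in a comparison, and from the profile comparison the 5 nearest protein-coding genes. Slc9a2, Atp12a, Car2, Ckb, Pgc and Gkn2, the span classes, and the motifs AGATAA and TATAAA, were chosen after their values were seen. Alternatives were 3 other scalings, removal of the span trend, 2 other filters, averaging of probe sets by gene, a 1.5-fold rule and 2 other variance models.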

Additional observations from a re-analysis of the deposited data

Results flagged for a closer look

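Metformin went with opposite directions in KO and WT for 7 of the 10 genes, higher in KO and lower in WT. The KO response minus the WT response was 1.56 for Slc9a4, 1.52 for Kcnj15, 1.33 for Slc26a9, 0.74 for Kcnq1, 0.50 for Atp4b, 0.39 for Atp4a and 0.28 for Kcne2, in log2 units. Each response is a difference of 2 single arrays, and the difference between the genotypes was not tested. The same opposition was seen in 46.6% of all genes. It held for 6 of the 10 genes after cyclic loess and for 5 after quantile normalization or with the span trend removed. Kcne2 dropped out under all 3 (0.04 after cyclic loess), Atp4a after quantile normalization, and Kcnq1 with the span trend removed (0.19).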

How the results depend on the processing

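The arrays carry 1 sample for each group, so the comparisons between them have no error term, and signal over background is unknown. The filters and the averaging of probe sets cannot change the values of the 10 genes. Of 200 values under the 4 other scalings, 140 moved by less than 0.1 or stayed past 2-fold, 58 moved by more and 2 no longer passed 2-fold (Slc26a9 and Kcnj15 in KO vehicle against WT vehicle, with the span trend removed). Of the 10 genes, 1 then passed 2-fold in that comparison. At 1.5-fold, 3 passed with metformin in KO, 3 with metformin in WT, and 5 in the KO response minus the WT response, whose median over the 10 genes was 0.31 with the span trend removed. The cause was not tested. Counts of all genes past the threshold moved by over 1.5 times with the filter, the threshold and the span setting, which also changes the scaling and keeps protein-coding genes alone. For metformin in KO the counts were 557 with no filter, 221 with a filter at the 75th percentile, 210 with the span trend removed and 1792 at 1.5-fold, against 339. For metformin in WT they were 298, 125, 83 and 1401 in that order, against 189. For KO metformin against WT metformin they were 216, 43, 67 and 641, against 102. For the difference of responses they were 2626, 983, 990 and 4234, against 1641. For KO vehicle against WT vehicle they were 716 at the 75th percentile, 671 with the span trend removed and 3535 at 1.5-fold, against 1156. limma's genotype calls numbered 3 with no filter and 8 with an intensity trend in the variance, against 5. Lowest and highest values of single genes over the scalings in KO vehicle against WT vehicle were -1.48 and -1.05 for Slc9a4, -1.30 and -0.99 for Slc26a9, and -1.30 and -0.84 for Kcnj15. No paired analysis was possible because each group has 1 array and the labels give no replicate numbers.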
